A study of Mus musculus with 4 samples.

Results

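The Tip60-p400 complex is a chromatin regulator that joins a histone acetyltransferase, Tip60 (gene Kat5), to a nucleosome remodeling ATPase, p400 (gene Ep400). Peaks of open chromatin were collected at 10 genes of the complex: Kat5, Ep400, Trrap, Dmap1, Ing3, Brd8, Epc1, Epc2, Ruvbl1 and Ruvbl2. The genes were chosen by name, out of 21938 protein-coding genes in the annotation. Together they had 52 of the 52714 regions obtained when overlapping peaks of all libraries were merged.

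Open chromatin was mapped by ATAC-seq, in which a transposase cuts accessible DNA and inserts sequencing adapters, and a peak is an interval where such cuts pile up. The cells were E14, a line of mouse embryonic stem cells (ESCs), grown in serum and LIF, a cytokine that keeps them undifferentiated. They were infected with a pLKO lentivirus that carried a short hairpin RNA, selected with puromycin and harvested 2 days later. There were 4 libraries, 1 with a hairpin against GFP (shGFP) and 3 with a hairpin against luciferase (shLuc replicates 1, 2 and 3). Both targets are absent from the mouse genome, so both groups are non-targeting controls and no targeted gene could be checked; the libraries of cells with a knocked-down chromatin modifier were not analysed here. All groups share the line, the virus and the selection. The labels do not say whether the shLuc replicates were separate infections.

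In the acetyltransferase core, Tip60 acetylates histones H4 and H2A and works together with an enhancer of polycomb protein (Epc1 or Epc2) and the PHD finger protein Ing3, which binds methylated histone H3. Ep400 exchanges histone H2A for the variant H2A.Z, Trrap is the large scaffold through which transcription factors recruit the complex, and Ruvbl1 and Ruvbl2 are AAA+ ATPases that form a ring and also serve the INO80 and SRCAP remodelers. Dmap1 and Brd8, a bromodomain protein that can bind acetylated lysine, complete the list. In ESCs the complex is known as a regulator of self-renewal, and it binds the promoters of many genes.

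The lists hold the start and end of each peak and no height, so a gene could be described by whether a peak was listed, where it lay and how wide it was. shGFP had 41943 peaks, and shLuc replicates 1, 2 and 3 had 17860, 41401 and 31585. The lists hold no read counts, and a missing peak means only that none was listed. The study's mapping statistics, used here for their order alone, rank the libraries by total reads in the same order as by peaks, with shGFP first and shLuc replicate 1 last. No pair of lists shared more than 40 identical peaks. Among 6 genes that mark ESCs, a peak near the start was listed in every library for Zfp42, in 2 libraries each for Esrrb and Klf4, and in none for Pou5f1, Nanog and Sox2, so the lists are silent on promoters that are known to be active in these cells. With 1 shGFP library against 3, an exact permutation test cannot give a p below 0.25, so no test was run, and values of shGFP are set beside the mean and SD of the shLuc libraries.

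To ask whether the genes of the complex lay in open chromatin, promoter peaks were counted first. A promoter peak was a peak within 1 kb of the start of any annotated transcript of the gene. Of the 10 genes, 9 had a promoter peak in shGFP, 9 in shLuc replicate 1, 10 in replicate 2 and 9 in replicate 3. Over all protein-coding genes the share was 60.7% for shGFP, and for shLuc replicates 1, 2 and 3 it was 46.8%, 60.3% and 55.1%. A promoter peak in all 4 libraries was found for 8 of the 10 genes (80%), against 42.5% of protein-coding genes. The 8 were Kat5, Ep400, Trrap, Dmap1, Ing3, Brd8, Epc1 and Ruvbl1. No gene of the complex was without a promoter peak altogether, whereas 35.3% of protein-coding genes were. Leaving out a shLuc library could not change the count of 8. Epc2 lacked a promoter peak in shGFP, and Ruvbl2 lacked one in both shLuc replicates 1 and 3. The count was 6 when only the widest 17860 peaks of each list, the length of the shortest list, were kept, because Dmap1 and Ruvbl1 dropped out.

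The exceptions were Epc2 and Ruvbl2. Epc2 had a promoter peak in all 3 shLuc libraries and none in shGFP, a pattern seen at 63 protein-coding genes (0.287%). Ruvbl2 had one in shGFP and shLuc replicate 2, the longest lists, and none in the shorter lists of replicates 1 and 3; this pattern was seen at 568 protein-coding genes (2.59%). The part that list length and depth have in the Ruvbl2 pattern was not tested. Epc2 was missing from the shGFP list alone, the list with the most peaks and the most reads. Why it was missing was not tested either.

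**Figure D1:**
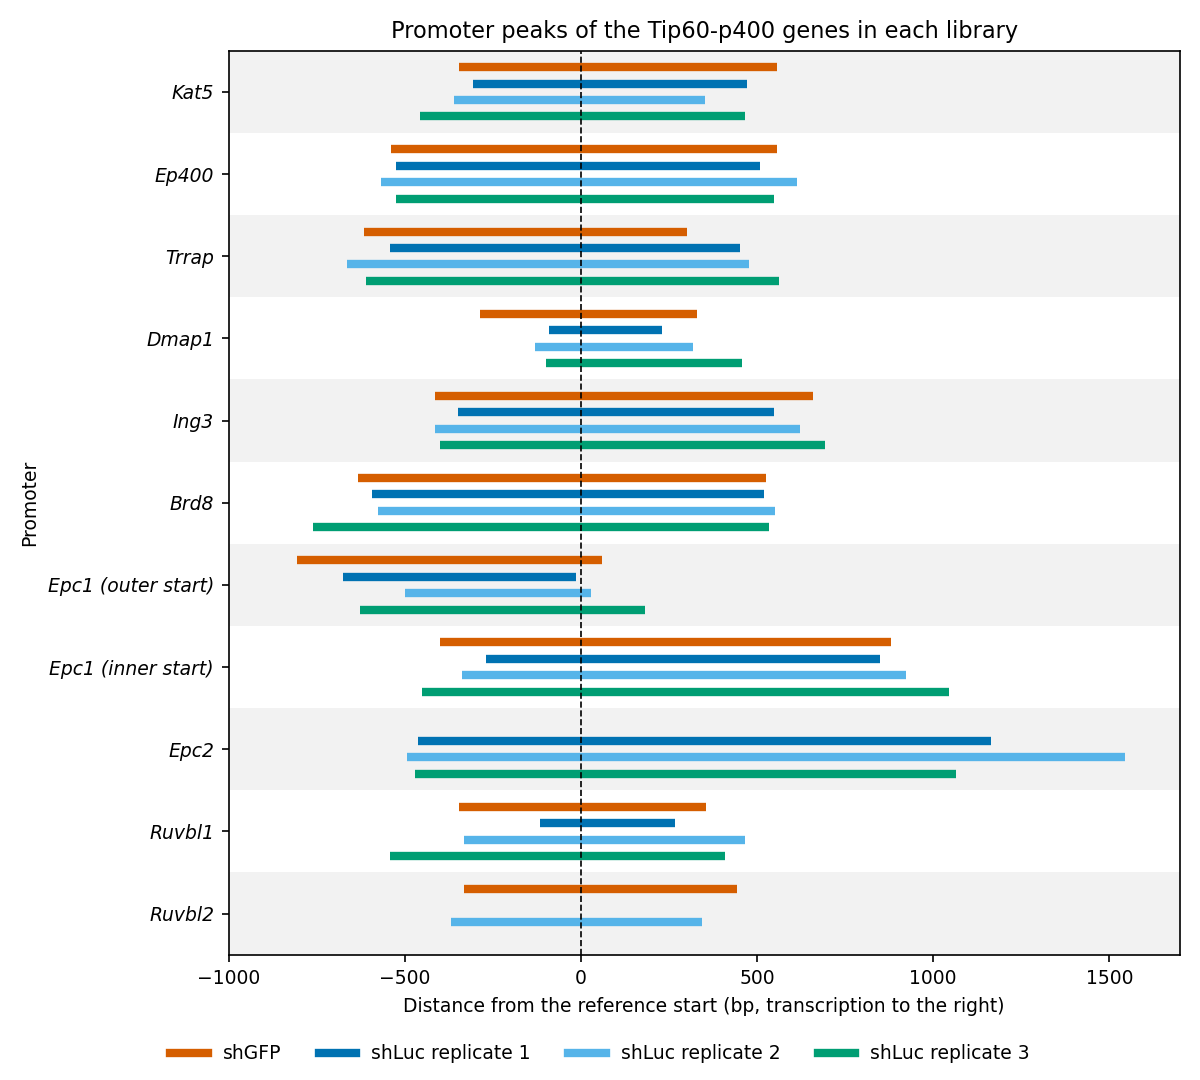
Promoter peaks of the 10 genes. Each bar runs from the upstream to the downstream edge of a peak, in bp from the reference start of the promoter (dashed line), and colors mark the 4 libraries. The reference start was chosen near the middle of each region, so the bars cross it except at Epc1 (outer start) in shLuc replicate 1; Epc2 has no bar in shGFP, and Ruvbl2 has none in shLuc replicates 1 and 3.

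Each promoter peak either covered an annotated start of its gene or ended within 14 bp of one. Positions are given from a reference start, the start of a protein-coding transcript nearest to the middle of the merged region, with negative values upstream. Because this start was chosen from the peaks, 40 of 41 peaks covering it is not a finding; the remaining peak, at Epc1, ended 14 bp upstream of it. No peak lay between 14 bp and 1 kb from a start. The nearest peak beyond the 1 kb limit, 1419 bp from a Kat5 start, was at the promoter of the neighboring gene Rnaseh2c.

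Among the genes of the acetyltransferase core, Kat5 (chr19:5603014-5610237, minus strand, GRCm38) had a promoter peak of 904 bp in shGFP and of 780, 713 and 925 bp in shLuc replicates 1, 2 and 3 (mean 806 ± 108 bp, SD, n = 3). The shGFP peak was within 1 SD of the shLuc mean and inside the shLuc range. All 4 peaks shared 659 bp, and their merged region, chr19:5609471-5610486, held 10 of the 12 annotated start positions of the gene. At Ing3 (chr6:21949571-21976038, plus strand) the peak was 1073 bp in shGFP and 899, 1039 and 1094 bp in shLuc (mean 1011 ± 101 bp, SD, n = 3). Here too shGFP lay inside the shLuc range. Its upstream edge ran from -415 to -350 bp over the libraries, and its region, chr6:21949255-21950362, covered 7 of 8 start positions.

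In every library the widest promoter peak of the complex was at an enhancer of polycomb gene, at Epc1 in shGFP and at Epc2 in the shLuc libraries. Epc2 (chr2:49451486-49551948, plus strand) had peaks of 1629, 2040 and 1536 bp in shLuc replicates 1, 2 and 3 (mean 1735 ± 268 bp, SD, n = 3) and none in shGFP. These were at percentiles 99.3, 99.1 and 94.4 of the widest promoter peak per protein-coding gene in their libraries. Among the 63 genes with a promoter peak in the 3 shLuc libraries and not in shGFP, the median of the mean width was 822 bp, and Epc2 ranked 3 from the widest. The upstream edges were close together, from -493 to -463 bp, while the downstream edges ran from 1064 to 1546 bp into the gene, so the shLuc peaks differed on the side of the gene body. The merged region, chr2:49450993-49453032, lay over the first exon, the start of the first intron and the sequence upstream.

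Accessibility at Epc2 was not missing from shGFP throughout the gene. The nearest shGFP peak to the Epc2 start was 6492 bp into the gene, in an intron, and was 233 bp wide; it was found in no other library. Another 2 intronic sites, at chr2:49471886-49472403 and chr2:49481121-49481665, had peaks in shGFP (467 and 523 bp), shLuc replicate 2 (518 and 290 bp) and replicate 3 (362 and 455 bp), and none in replicate 1. The second of them lay almost entirely in repeats, which made up 84.8% of its bases, and reads in repeats may have been placed at random among copies. Thus shGFP listed all 3 intronic sites of Epc2 and not its promoter, and shLuc replicate 1 listed the promoter and none of the intronic sites.

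Epc1 (chr18:6435951-6516108, minus strand) was the sole gene of the set with a pair of separate promoter regions. The outer one, at the 5′ end of the gene (chr18:6515926-6516913), had peaks of 866 bp in shGFP and of 663, 530 and 810 bp in shLuc (mean 668 ± 140 bp, SD, n = 3). shGFP was wider than all 3 shLuc libraries there, by 198 bp over their mean. The inner one, at an internal start of a protein-coding transcript (chr18:6489812-6491308), had peaks of 1281 bp in shGFP and of 1118, 1262 and 1497 bp in shLuc (mean 1292 ± 191 bp, SD, n = 3). In every library the inner peak was the wider. Peaks at the outer start lay mainly upstream of it, with centers from -373 to -223 bp, and those at the inner start mainly downstream, with centers from 239 to 296 bp. The inner region also held starts of the antisense gene Gm28529 and of the microRNA gene Mir1893, so its peaks cannot be assigned to Epc1 alone.

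Next, the genes of the remodeling ATPase and the scaffold were examined. Ep400 (chr5:110664373-110770717, minus strand) had the promoter peak that varied least in width among those with a peak in all libraries. It was 1096 bp in shGFP and 1035, 1182 and 1074 bp in shLuc (mean 1097 ± 76.2 bp, SD, n = 3), and the shGFP width differed from the shLuc mean by 1 bp. The widest of the 4 was 1.14 times the narrowest, and the 4 peaks shared 1035 bp of a region of 1182 bp, chr5:110769971-110771152, which held 4 of the 9 start positions of the gene. That region also held the start of the antisense gene Gm15559, 232 bp from an Ep400 start on the opposite strand.

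Trrap (chr5:144767732-144859778, plus strand) had peaks of 918 bp in shGFP and of 995, 1142 and 1174 bp in shLuc (mean 1104 ± 95.5 bp, SD, n = 3). It was the sole promoter at which shGFP was narrower than all 3 shLuc libraries. The difference lay on the downstream side, where the shGFP peak ended at 300 bp and the shLuc peaks at 452, 478 and 563 bp. Its region, chr5:144767881-144769107, held 3 of 14 start positions.

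Of the ATPase genes, Ruvbl1 varied most in width among promoters with a peak in all libraries, and Ruvbl2 had a peak in the fewest libraries. Ruvbl1 (chr6:88465409-88497572, plus strand) had a peak of 703 bp in shGFP and of 383, 799 and 952 bp in shLuc (mean 711 ± 294 bp, SD, n = 3), a ratio of widest to narrowest of 2.49. The narrow peak was that of shLuc replicate 1, the shortest list, and the upstream edge moved most, from -543 to -116 bp. Ruvbl2 (chr7:45421760-45438096, minus strand) had peaks of 776 bp in shGFP and 715 bp in shLuc replicate 2. They shared 677 bp of the region chr7:45434266-45435079. The region also held starts of Gys1, the gene of muscle glycogen synthase, which is read in the opposite direction from a start 135 bp away, so that a peak here cannot be assigned to Ruvbl2 rather than Gys1.

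Dmap1 and Brd8 had narrow and wide promoter peaks, respectively. Dmap1 (chr4:117674681-117682273, minus strand) had the narrowest promoter peaks of the complex, 618 bp in shGFP and 321, 448 and 559 bp in shLuc (mean 443 ± 119 bp, SD, n = 3). They were at percentiles 12.9, 4.30, 4.46 and 12.4 of protein-coding genes. shGFP was wider than all 3 shLuc libraries, mainly upstream, where its edge was at -287 bp and those of shLuc were at -91, -129 and -100 bp. Brd8 (chr18:34598615-34624601, minus strand) had peaks of 1160 bp in shGFP and 1115, 1128 and 1295 bp in shLuc (mean 1179 ± 100 bp, SD, n = 3). Its downstream edge hardly moved, from 521 to 551 bp. The region, chr18:34624050-34625361, was shared with Kif20a, a mitotic kinesin gene that starts 12 bp from a Brd8 start on the opposite strand.

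Over the 9 promoter regions with a peak in all libraries, shGFP was within 1 shLuc SD of the shLuc mean at 6, wider than all shLuc libraries at 2 (Dmap1 and the outer start of Epc1) and narrower at 1 (Trrap). Among the shLuc libraries, replicate 1 gave the narrowest of the 4 peaks at 6 regions and the widest at none, and replicate 3 gave the widest at 6 and the narrowest at none. Replicate 1 also had the lowest median width over protein-coding genes with a promoter peak, 704 bp. Replicates 2 and 3 had 932 and 897 bp there and shGFP 966 bp, so replicate 3 was not the widest.

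**Figure D2:**
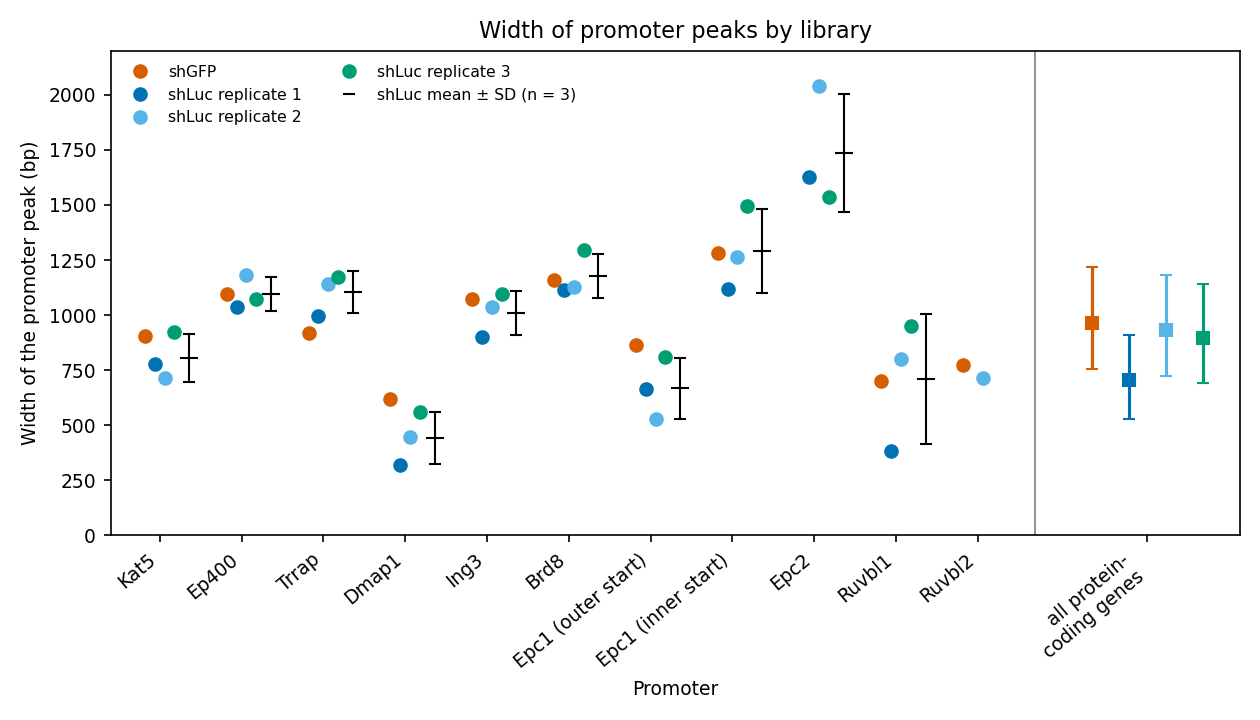
Width of the promoter peak (bp) for each promoter and library. Points are libraries and black marks are the shLuc mean ± SD (n = 3, given where all 3 have a peak); squares at the right are the median over protein-coding genes with a promoter peak, with the interquartile range. Epc2 reaches 2040 bp in shLuc replicate 2, and Dmap1 falls to 321 bp in shLuc replicate 1.

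Taking the widest promoter peak of each gene, the median over the genes of the complex was 918 bp in shGFP and 995, 1083.5 and 1094 bp in shLuc (mean 1057.5 ± 54.4 bp, SD, n = 3). The difference was larger than the SD, but the medians were not taken over the same genes. Epc2 had no promoter peak in shGFP, and Ruvbl2, with 776 bp in shGFP, had none in shLuc replicates 1 and 3. The median over all protein-coding genes with a promoter peak was 966 bp in shGFP and 704, 932 and 897 bp in shLuc. In shGFP 4 of 9 genes were over the median of protein-coding genes. In shLuc these were 7 of 9, 6 of 10 and 8 of 9. Epc2 has a wide peak in the shLuc libraries and none in shGFP. With Epc2 left out, the shLuc mean of the medians was 1023 ± 69.8 bp (SD, n = 3), and shGFP stayed at 918 bp. This alternative was added after the values were seen. Ruvbl2 was still counted in shGFP and not in shLuc replicates 1 and 3, so these medians too covered different genes. A median over the genes with a peak in every library was not taken. With the widest peaks of each list at equal length, the median was 1073 bp in shGFP and the shLuc mean was 1085.7 bp. With the widest 50% of each list these were 995.5 and 1099 bp. Both choices remove narrow peaks.

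The promoter sequences show what lay under these peaks. Shown are stretches upstream of the reference start that contain no annotated exon, read on the strand of the gene from the GRCm38 genome of RefSeq: the narrowest promoter (Dmap1), a wide one with a peak in all libraries (Ep400), and the promoters that lacked a peak in some library (Epc2 and Ruvbl2). Trrap had a wider region than Ep400, but no such stretch was found there; Epc1 (inner start) and Brd8, whose sequences are not shown here, were also wider. Capitals mark matches to searched motifs on either strand.
Ep400: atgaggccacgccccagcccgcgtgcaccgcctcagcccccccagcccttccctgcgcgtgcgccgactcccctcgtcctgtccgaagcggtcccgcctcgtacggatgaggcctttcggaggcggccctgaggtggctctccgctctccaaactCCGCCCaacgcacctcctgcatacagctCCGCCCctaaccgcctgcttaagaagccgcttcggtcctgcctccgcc
Dmap1: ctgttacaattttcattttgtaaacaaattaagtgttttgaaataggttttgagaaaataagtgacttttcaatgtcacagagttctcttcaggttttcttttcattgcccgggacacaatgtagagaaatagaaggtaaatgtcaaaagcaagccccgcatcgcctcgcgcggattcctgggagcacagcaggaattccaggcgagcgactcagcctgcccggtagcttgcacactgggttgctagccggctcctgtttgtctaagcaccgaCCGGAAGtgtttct
Epc2: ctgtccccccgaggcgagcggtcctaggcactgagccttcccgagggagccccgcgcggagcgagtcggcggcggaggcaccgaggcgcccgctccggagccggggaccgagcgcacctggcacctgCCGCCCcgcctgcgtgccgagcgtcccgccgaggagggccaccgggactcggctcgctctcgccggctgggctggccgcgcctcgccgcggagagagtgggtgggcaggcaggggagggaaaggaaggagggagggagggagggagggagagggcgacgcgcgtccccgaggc
Ruvbl2: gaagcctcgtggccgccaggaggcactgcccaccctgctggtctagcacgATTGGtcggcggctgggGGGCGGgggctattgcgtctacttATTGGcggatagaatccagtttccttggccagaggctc

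The Ep400 stretch, chr5:110770718-110770948, was in the peak of every library over all of its 231 bases. It held 24 CpG dinucleotides, and its capitals are 2 GC boxes (GGGCGG, written here as the reverse complement), at -208 and -180 bp from the reference start. The Dmap1 stretch, chr4:117682274-117682560, was poorer in G and C (46.0%) and turned to AT-rich sequence toward its far end. All 287 bases were in the shGFP peak, but only the 91, 129 and 100 bases nearest the start were in the peaks of shLuc replicates 1, 2 and 3. Its capitals are an ETS motif (CCGGAAG) at -14 bp, inside the peak of every library.

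The Epc2 stretch, chr2:49451186-49451485, was 78% G and C with 40 CpG dinucleotides in 300 bases. None of these bases was in a shGFP peak, and all 300 were in a peak of each shLuc library. Its capitals are a GC box at -173 bp. The Ruvbl2 stretch, chr7:45434710-45434838, is the 129 bp between annotated exons of Ruvbl2 and Gys1. All of it was in the peaks of shGFP and shLuc replicate 2 and none of it in a peak of the other libraries. In capitals are a pair of CCAAT boxes, at -79 and -38 bp and written as ATTGG, and a GC box at -62 bp.

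To compare base composition, all member promoter regions were set beside those of protein-coding genes. The 11 regions had a median GC content of 60.1%, a median CpG ratio (CpG observed over expected from C and G content) of 0.778 and a median repeat share of 6.63%. For the 14891 promoter regions of protein-coding genes the medians were 60.4%, 0.698 and 5.91%. The regions of protein-coding genes with a peak in all 4 libraries had 61.3%, 0.743 and 5.42%. Within the complex, GC content ran from 70.1% at Ep400 to 50.3% at Ruvbl1, and the CpG ratio from 1.06 at Ing3 to 0.605 at Kat5. Epc2 (65.5%, CpG ratio 0.942) and Ruvbl2 (59.3%, 0.671), the promoters without a peak in some library, were inside the range of the others.

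Short motifs were searched on both strands in RefSeq promoter windows that run from 250 bases before to 50 bases after a start. The table held 10 windows for 8 of the 10 genes; Epc1 and Brd8 had no entry. The GC box (GGGCGG) was in 8 of the 10 windows, of 7 genes, and in 46.2% of windows of protein-coding genes. CCAAT was in 5 windows, of Ing3, Kat5, Ruvbl1 and Ruvbl2, and in 38.2% of windows of protein-coding genes. The ETS motif CCGGAAG was in 2 windows (Dmap1 and Kat5; 11.6% of protein-coding windows), the cyclic AMP response element TGACGTCA in 2 windows of Ing3 (2.23%), and the E-box CACGTG in 1 window of Kat5 (7.84%). The motifs GCATGCGC of NRF1 (3.52%) and AAGATGGC of YY1 (3.05%) were in none of the 10. A match is a run of letters and does not show that a factor was bound, and the absence of a match covers these letters in these windows only.

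Away from the promoters, more peaks lay in the 50 kb flanks than in the gene bodies, but the counts were not scaled to the length of either. Within the gene bodies, over 1 kb from every start of the gene, there were 6 peaks in shGFP and 0, 3 and 4 in shLuc replicates 1, 2 and 3 (mean 2.33 ± 2.08, SD, n = 3). They formed 7 regions in 5 genes, none of which had a peak in all 4 libraries. shGFP had a peak in 6 of the 7, of which 2 were found in shGFP alone: the intronic Epc2 site nearest the start and an intronic site of Epc1 (346 bp). The excess of shGFP over the shLuc mean was larger than the SD, but the counts were not scaled to list length. That mean includes shLuc replicate 1, the shortest list, with 0 body peaks. In shLuc replicate 2, whose list was nearly as long as that of shGFP, there were 3. With the widest 17860 peaks of each list, a choice that removes narrow peaks, no body peak was left in any library.

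The other body regions were an intron of Dmap1 (303 bp in shGFP and 264 bp in shLuc replicate 2), an exon of Ruvbl1 (433 bp in shGFP and 386 bp in shLuc replicate 3), an exon of Brd8 (283 bp, in shLuc replicate 3 alone) and both other intronic sites of Epc2. The median width of body peaks was 389.5 bp in shGFP, and 290 and 374 bp in shLuc replicates 2 and 3. They were thus narrower than the promoter peaks, whose medians ran from 911 to 1084 bp. The long genes Ep400 and Trrap had no body peak in any library.

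**Figure D3:**
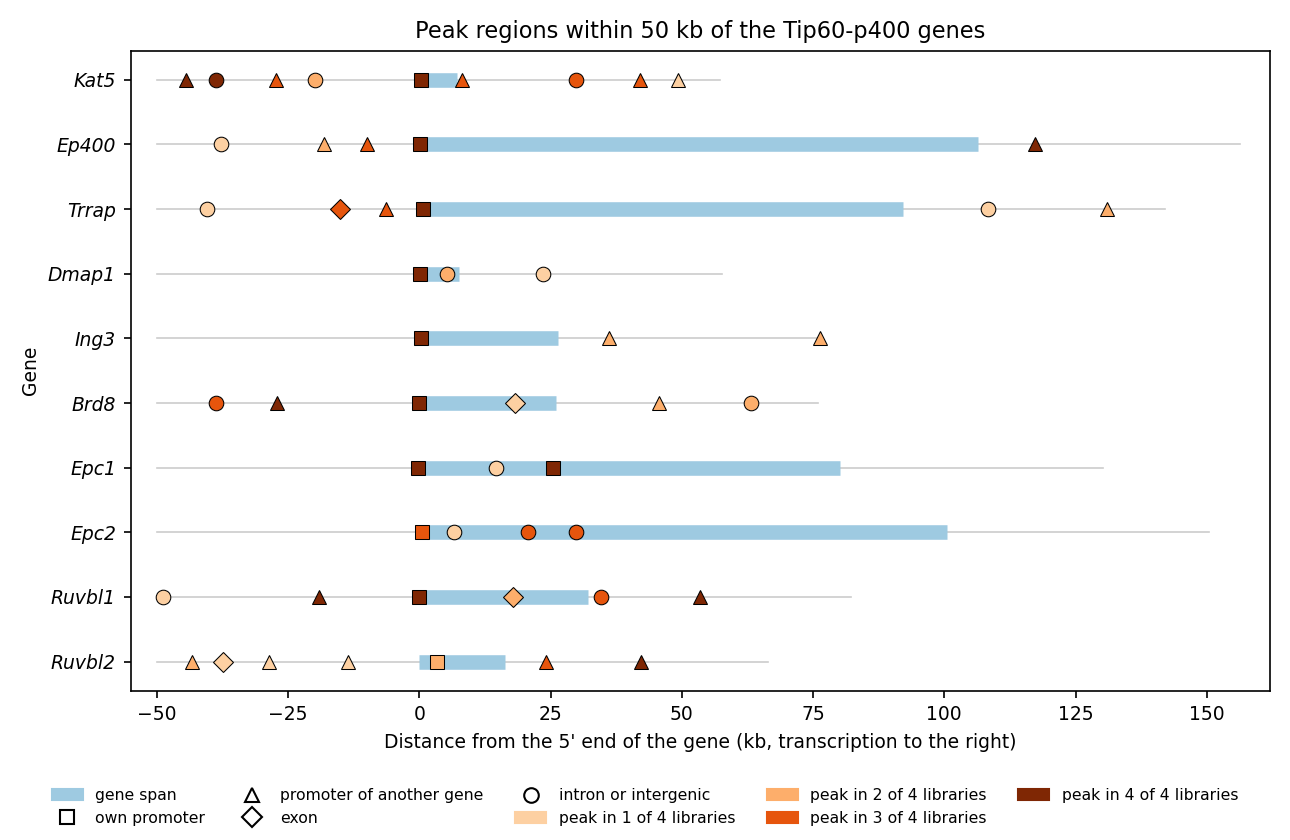
Peak regions around the 10 genes. The horizontal axis is the distance from the 5′ end of the gene in kb, with blue bars for the gene span, thin lines for the 50 kb on either side, symbols for the kind of region and darker colors for peaks in more of the 4 libraries. The squares of own promoters are dark at 9 of 11 regions, while 7 of the 34 regions outside the genes and none of the 7 regions in gene bodies had a peak in all 4 libraries.

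Within 50 kb on either side of the genes there were 27 peaks in shGFP and 13, 24 and 19 in shLuc (mean 18.7 ± 5.51, SD, n = 3). The difference was larger than the SD, but the counts were not scaled to list length. The whole lists held 41943 peaks in shGFP and 17860, 41401 and 31585 in shLuc replicates 1, 2 and 3. With the widest 17860 peaks of each list, which removes more narrow peaks from the longer lists, shGFP had 11 and shLuc a mean of 12.3. The peaks formed 34 regions, of which 21 were within 1 kb of a start of another gene and 13 were elsewhere. The limit of 50 kb fell between peaks at 49490 and 50279 bp from a gene. Of the 7 flanking regions with a peak in all 4 libraries, 6 were promoters of neighbors: Sipa1 near Kat5, the shared promoter of Ddx51 and Noc4l near Ep400, Cdc23 near Brd8, Eefsec and Sec61a1 on either side of Ruvbl1, and Snrnp70 near Ruvbl2. Of 10 flanking regions with a peak in 3 libraries, 7 were missing from shLuc replicate 1, the shortest list. This was not particular to these flanks. Among protein-coding genes, 2193 lacked a promoter peak in shLuc replicate 1 and had one in every other library. The numbers were 90 for replicate 2, 478 for replicate 3 and 63 for shGFP.

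A single flanking region with a peak in every library was at no annotated promoter. It lay upstream of Kat5, 38392 bp from its 5′ end, at chr19:5648629-5649373, in intergenic sequence 2903 bp from the nearest start, that of Sipa1. Its peaks were 562 bp in shGFP and 629, 745 and 692 bp in shLuc replicates 1, 2 and 3. The shGFP peak was the narrowest. Its GC content was 54.6% and its CpG ratio 0.436, lower than those of the Kat5 promoter (61.2% and 0.605).

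The density of regions differed widely among the genes. Kat5 had 9 regions in its span and the 50 kb around it, or 8.39 per 100 kb, and Epc1 had 3, or 1.67 per 100 kb. Epc1 and Epc2 were the 2 genes with no region in the flanks, and all of their regions were inside or at the start of the gene. The median over the 10 genes was 2.96 regions per 100 kb. Over all protein-coding genes it was 3.39 (interquartile range 1.89 to 4.99), so the median of the complex genes was inside the range of protein-coding genes.

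Lastly, 42 further genes that belong to the complex, share subunits with it or are relatives of its members were examined. Of these, 36 had a promoter peak in shGFP, and 32, 38 and 35 had one in shLuc replicates 1, 2 and 3. A promoter peak in all 4 libraries was found for 32 of the 42, and 1 had none. Over all protein-coding genes the share was 60.7% in shGFP and 46.8%, 60.3% and 55.1% in shLuc replicates 1, 2 and 3. It was 42.5% for all 4 libraries, and 35.3% had no promoter peak. A high share was thus not particular to the 10 genes, of which 8 had a promoter peak in all 4 libraries. Of the 9 other Tip60-p400 subunits, 7 had a promoter peak in all libraries: Actl6a, Yeats4, Morf4l1, Morf4l2, Mrgbp, Meaf6 and Mbtd1. The exceptions were Actb, the gene of beta-actin, with peaks of 1116 bp in shGFP and 1108 bp in shLuc replicate 2, and Vps72, which encodes an H2A.Z chaperone, with a peak of 655 bp in shLuc replicate 2. Actb thus had the same presence in the libraries as Ruvbl2.

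In the SRCAP remodeler and H2A.Z list, 4 of 5 genes had a promoter peak in all libraries, and H2afz, which encodes H2A.Z, had one in shGFP alone (681 bp). For the INO80 complex, which shares Ruvbl1 and Ruvbl2, these were 8 of 11 genes. Ino80b had no promoter peak, Ino80d had one in shLuc replicate 2 (959 bp), and Ino80e in replicates 2 and 3 (410 and 713 bp). All 4 other MYST acetyltransferases, the family of Tip60, had a promoter peak in every library, the widest being that of Kat6b in shGFP (2230 bp).

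Of the 4 other ING family genes, Ing2, Ing4 and Ing5 had a promoter peak in all libraries and Ing1 in shLuc replicate 3 alone (908 bp). Of 9 genes of SAGA, the acetyltransferase complex that shares Trrap, 6 had a promoter peak in all libraries. Its acetyltransferase genes were not among them: Kat2a had a promoter peak in shLuc replicate 2 alone (730 bp), and Kat2b had one in shGFP (259 bp) and shLuc replicate 2 (1585 bp). The remaining gene, Taf5l, had one in shGFP (1101 bp) and shLuc replicate 3 (1213 bp).

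**Figure D4:**
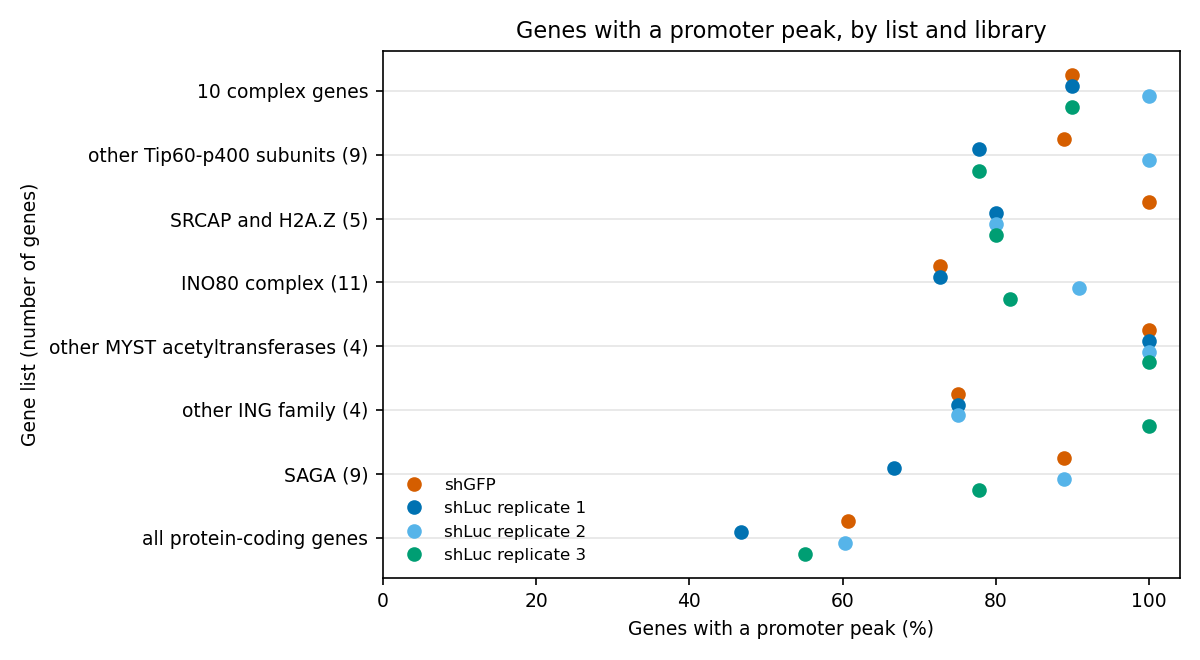
Percent of genes with a promoter peak in each library, for the 10 genes, the related lists (number of genes in parentheses) and all protein-coding genes. Points are libraries, and all lists lie to the right of all protein-coding genes in every library; the shortest lists hold 4 genes.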

How the data were processed

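The data were 4 ATAC-seq peak lists from E14 ESCs, 1 of shGFP and 3 of shLuc. The authors deposited 1 list per library, so replicates were not pooled, and each list has 3 columns (chromosome, start and end), with no score, height or count. Per the study's methods, given under a heading that also covers ChIP-seq, read pairs were aligned to mm10 with Bowtie2, keeping the best position and choosing at random among equally good ones, so that peaks in repeats may be misplaced. The submitters' processing notes also name bcl2fastq and MACS2. The peak threshold and any shift for the transposase are not given in the sources used here. The study tabulates reads per library in its supplement; these totals were read for their order alone, and the lists themselves hold no counts, so no interval for depth is given.

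Genes and starts were those of GENCODE mouse release 21 on GRCm38, the assembly that mm10 names, and positions are counted from 1. A promoter peak came within 1 kb of a transcript start, a body peak overlapped the gene farther from its starts, and a flanking peak lay within 50 kb of the gene. Peaks of the libraries that overlapped by at least 1 bp were merged into regions. Python 3.11.15, numpy 2.4.6, scipy 1.17.1, pysam 0.24.0 and matplotlib 3.10.9 were used. The placement of peaks was tested on simulated data and was right for 2104 of 2104 genes. Sequences shown avoid annotated exons, both of GENCODE and of curated RefSeq transcripts.

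All 10 genes are named, with further genes of the lists where a count singled them out, and other genes where they start within 1 kb of a region or are nearest to a region found in all libraries. Genes that mark ESCs were added as a check of the cells. The members and lists were chosen with earlier results of these data known. No test was run, as shGFP had 1 library, and shares over 21938 protein-coding genes serve as background. The alternatives were windows of 500 bp and 5 kb, protein-coding transcripts alone, peak centers, the widest peaks of each list at equal length (17860) or 50%, flanks of 20 kb and 100 kb, merging within 500 bp and leaving out each shLuc library.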

Additional observations from a re-analysis of the deposited data

How the results depend on the processing

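No paired analysis was possible because shGFP had a single library and no result comes from a test. Of 183 comparisons of 22 results with 13 alternatives, 151 stayed and 32 moved. To stay meant within 1.5 times the count, within the shLuc SD of a width or within the 95% Wilson interval of a share. Of the 93 comparisons of the main results, 29 moved. The other 90 were of the number of libraries with a promoter peak per gene, and 3 of these moved. Leaving out a library lowers that number by design, and a fall from 4 to 3 was scored as staying. The number of genes with a promoter peak in all libraries was 8, except 6 with the widest peaks at equal length or the widest 50%, where Dmap1 kept a peak in 1 library and in 0. The share of protein-coding genes with a promoter peak in all libraries was 41.8% with starts within 500 bp, 46.4% within 5 kb and 41.4% with protein-coding transcripts alone. With the widest peaks at equal length it was 31.6%, the median width in shGFP rose to 1073 bp, body peaks fell to 0 in shGFP and 0 in shLuc, flanking peaks to 11 in shGFP and 12.3 in shLuc, and regions to 32, since fewer peaks enter and the narrow ones are removed, more of them from the longer lists. With the widest 50% these were 25.3%, 995.5 bp, 0, 0, 12, 10.3 and 26 regions, of which 10 were in all libraries. At equal length shGFP thus no longer had more flanking peaks than the shLuc mean. The shLuc mean of the median width was 1085.7 bp at equal length and 1099 bp with the widest 50%. Flanks of 20 kb gave 14 peaks in shGFP, 7.67 in shLuc and 33 regions, and flanks of 100 kb gave 52, 38.7 and 83, with 28 regions in all libraries. Leaving out 1 shLuc library gave 17 to 25 regions in all remaining libraries (25 without replicate 1), 42.9% to 52.5% of protein-coding genes (52.5% without replicate 1), and a shLuc mean of 1.5 to 3.5 body peaks (1.5 without replicate 3). Ruvbl2 kept a promoter peak in 1 library without shLuc replicate 2. Depth limits every statement on a missing peak, since the lists hold no read counts.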
